A study of Mus musculus with 2 samples.

Results

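The colony-stimulating factors are secreted proteins named for the blood-cell colonies they support. Csf1 encodes macrophage colony-stimulating factor (M-CSF), Csf2 granulocyte-macrophage colony-stimulating factor (GM-CSF) and Csf3 granulocyte colony-stimulating factor (G-CSF). Csf1r encodes the receptor tyrosine kinase for M-CSF, and Csf3r encodes the receptor for G-CSF. Csf2ra encodes the ligand-binding chain of the GM-CSF receptor, and Csf2rb the signalling chain that the receptors for GM-CSF, interleukin-3 and interleukin-5 share in mice. These 7 genes were taken by name, though with earlier results of these data known, and every probe set annotated to them was used. They had 10 of the array's 12654 probe sets, and 1 further probe set was annotated jointly to Csf2rb and its near-identical copy Csf2rb2.

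M-CSF acts on macrophages throughout their life and supports their survival, growth and differentiation. GM-CSF and G-CSF are made by macrophages and by other cells in response to bacterial products, and G-CSF then drives the production and release of neutrophils from bone marrow. In activated macrophages their genes are switched on through NF-kB and C/EBP factors, and their messages are short-lived because AU-rich elements mark them for decay.

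The samples were macrophages from the peritoneum of mice, drawn there by thioglycollate, a sterile irritant, and purified by adherence to plastic. One preparation came from Pac1-/- mice, called knockout here, and the other from age-matched Pac1+/+ littermates, called wild type. Pac1 is another name of Dusp2, a phosphatase that inactivates MAP kinases in the nucleus. Both preparations received 100 ng/ml of lipopolysaccharide (LPS), the bacterial cell-wall component sensed by Toll-like receptor 4, for 6 hours, so the values give levels after LPS and not induction by it. There was 1 Affymetrix array per genotype, and the labels used here state neither the strain, sex and age of the mice nor how many gave cells to each array. No difference below therefore has a replicate check, no test was possible, and whether the genotypes overlap cannot be told from 1 array each.

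Signals are MAS5 intensities in arbitrary units on a linear scale, and as deposited the 2 arrays already had equal trimmed means. The floor was the median of all signals, 36.4, and a probe set counted as eligible with 1 or both of its signals above it. Dusp2 was at 76.8 in knockout cells, against 333.0 in wild-type cells, and the labels do not state which stretch of the gene is missing or where its probes bind. Itgam, which encodes the Mac-1 protein used by the submitters to judge purity, was at 356 in knockout cells, against 301 in wild-type cells. Of 8 macrophage markers, 7 had a probe set of their own and all 7 were above the floor on both arrays. Of 47 markers of other cells on the array, 16 were above it on both arrays.

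Among the ligands, the transcript for G-CSF was lower on the knockout array by more than 1.5-fold, the M-CSF transcript was lower by less, and the GM-CSF transcript was not measurable above the floor on either array. Among the receptors, all differences were under 1.5-fold. The M-CSF receptor and both chains of the GM-CSF receptor were above the wild-type level, for the ligand-binding chain only under some scalings. The probe sets of the G-CSF receptor went both ways.

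Csf3 had a signal of 187 in knockout cells, against 301 in wild-type cells. That is a log2 ratio (knockout over wild type) of −0.69, which is 1.61-fold lower, or 62.1% of the wild-type signal. Csf3 was the only member 1.5-fold or more apart, which made 1 of 8 eligible member probe sets, or 12.5%. Of all 6838 eligible probe sets, 12.5% were as far apart in either direction, so the members' share equalled that of the array as a whole. By direction, 5.91% of all eligible probe sets were 1.5-fold or more lower. No member (0 of 8) was 2-fold apart, against 2.3% of all eligible probe sets.

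Dim signals spread more than bright ones, so the same count was also made over brighter probe sets. A signal above 100 on 1 or both arrays was found for 3914 probe sets, and 9.45% of them differed by 1.5-fold or more. All 8 eligible members were among these 3914. A log2 ratio as low as that of Csf3 occurred in 3.89% of all eligible probe sets and in 3.27% of the brighter ones.

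Csf1 had a signal of 485 in knockout cells, against 599 in wild-type cells, a log2 ratio of −0.30. The knockout level was 81.0% of the wild-type level, and 17.1% of all eligible probe sets had a ratio as low. Csf2 was at 13.2 in knockout cells, against 29.8 in wild-type cells, both under the floor, so no fold is given for it. With the floor lowered to the 25th percentile of all signals, Csf2 counted as eligible and was 2.26-fold lower. Csf3 and Csf2 were each measured by 1 probe set, as was Csf1, and no second probe set was at hand to compare. Some probe sets of such early arrays were made for the wrong strand of a gene, and which ones these are was not determined here, so a gene with 1 probe set has no check on this.

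Csf1r had a signal of 1090 in knockout cells, against 852.5 in wild-type cells in the first of its probe sets, a log2 ratio of 0.35. The knockout level was 1.28-fold higher, and 16.5% of all eligible probe sets had a ratio as high. The other Csf1r probe set was at 11.1 in knockout cells, against 20.6 in wild-type cells. Both of those signals were below the floor and gave no ratio, so the receptor's value rests on 1 probe set. At the lower floor the dim probe set was 1.86-fold lower, opposite in direction to the bright one.

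General macrophage markers lay on the same side of 0 as Csf1r. Of the 7 measured, 6 had ratios above 0, and their median log2 ratio was 0.24, against 0.02 for all 5119 eligible genes. After scaling both arrays to equal medians it was 0.12, with 5 of the 7 ratios above 0. All eligible genes then had a median of −0.10, with 37.7% above 0. After quantile normalization the markers had a median of 0.14, against 0.0008 for all eligible genes. The summed signal of the markers was 23717 in knockout cells, against 20208 in wild-type cells. Fcgr1, a receptor for antibodies, had the highest ratio of these markers (0.36), but its probe set is of a kind that may bind other transcripts too. The mannose receptor gene Mrc1 had the lowest (−0.29). Without probe sets of that kind, 5 of 6 markers were above 0, with a median of 0.20. The part of the macrophage share in the Csf1r value was not tested, and in such bulk samples more cells of a type and more RNA per cell cannot be told apart.

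**Figure D1:**
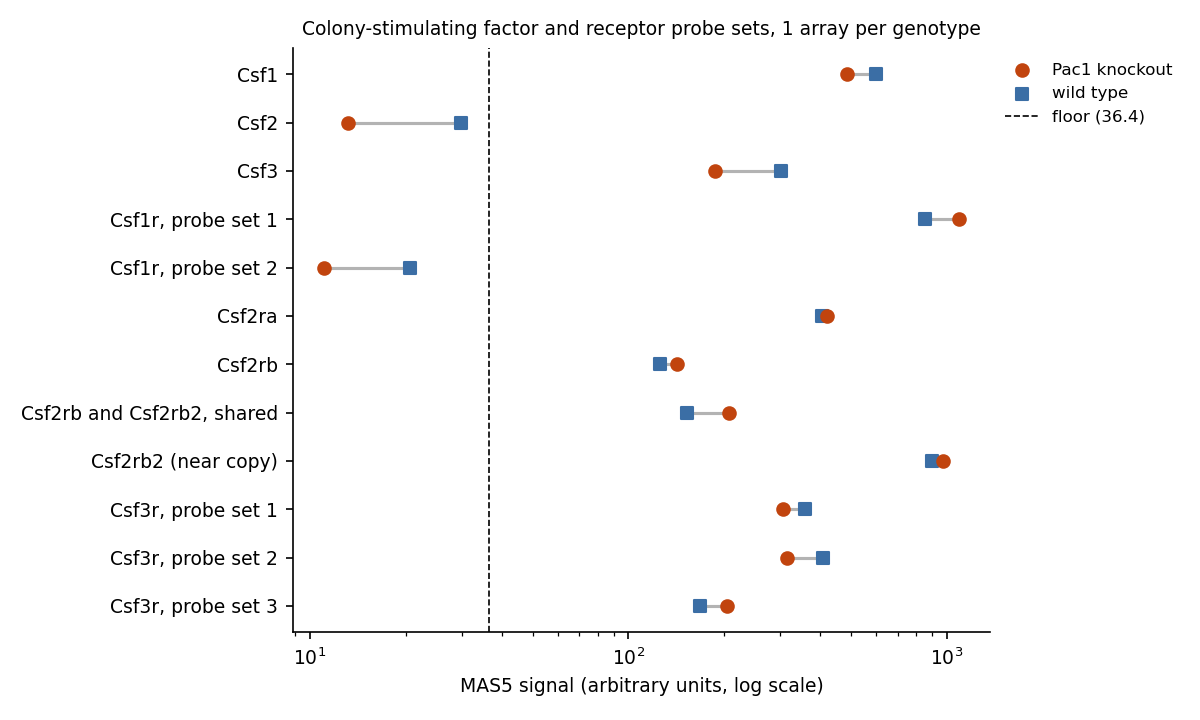
MAS5 signal (arbitrary units, log scale) of every member probe set, of the probe set shared by Csf2rb and Csf2rb2, and of Csf2rb2, on the Pac1 knockout array (circles) and the wild-type array (squares). The dashed line is the floor of 36.4; Csf2 and the second Csf1r probe set lie below it on both arrays, and the gap between the arrays is widest for Csf3 among the members above it.

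Csf2ra, the ligand-binding chain of the GM-CSF receptor, had a signal of 422 in knockout cells, against 406 in wild-type cells. Its log2 ratio of 0.06 was the closest to 0 among the eligible members. With equal medians in place of equal trimmed means, the ratio was −0.06, so its direction depends on the scaling.

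Csf2rb, the shared signalling chain, had a signal of 142 in knockout cells, against 126 in wild-type cells in its own probe set, a log2 ratio of 0.17. The probe set annotated to both Csf2rb and Csf2rb2 was at 207.5 in knockout cells, against 153 in wild-type cells, a ratio of 0.44. Csf2rb2, whose product serves the mouse receptor for interleukin-3, was at 976 in knockout cells, against 898 in wild-type cells, a ratio of 0.12. All 3 probe sets were thus above the wild-type level by 1.35-fold or less. Probes for such near-identical copies can bind both transcripts, so the share of each gene in these signals is uncertain.

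Csf3r, the receptor through which G-CSF acts on neutrophils and their precursors, had 3 probe sets, all above the floor. The second probe set was at 315 in knockout cells, against 408 in wild-type cells, a log2 ratio of −0.37. The first of them was at 305 in knockout cells, against 358 in wild-type cells, a ratio of −0.23. The third was at 204 in knockout cells, against 168 in wild-type cells, a ratio of 0.28.

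The 3 Csf3r probe sets therefore disagreed in direction, over a range of 0.65 on the log2 scale, with a mean ratio of −0.11. The probe set with the positive ratio was built on the same sequence record as the one with the lowest ratio. Its suffix marks probes that related sequences may share, and without probe sets of that kind both remaining Csf3r ratios were below 0. Among the 520 genes for which 2 or more probe sets cleared the floor in both genotypes, the median range between probe sets of a gene was 0.32, and 47.7% had probe sets on both sides of 0. Among the 70 genes with 3 such probe sets, 24.3% had a range as wide as that of Csf3r. In size, the ratios of Csf2ra, Csf2rb and Csf1 were below the median range of 0.32. Those of Csf1r and the second Csf3r probe set were just above it, and that of Csf3 was the furthest above it. The median range of the 70 genes was 0.45, and of these ratios only that of Csf3 was above it. A ratio's size and a range between probe sets are different quantities, so no limit of noise follows from this.

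Markers of neutrophils, the main cells known for Csf3r, were partly below the floor. Of 10 such markers, 5 were below the floor on both arrays, among them Ly6g, Mpo and the chemokine receptor gene Cxcr2. The other 5 had 3 ratios below 0 and 2 above it. The 3 of them above the floor on both arrays ran from −0.11 for the elastase gene Elane to 0.47 for Camp. Mmp8, at 9.5 in knockout cells, against 42.7 in wild-type cells, was lower by at least 1.17-fold. S100a9, at 41.2 in knockout cells, against 22.8 in wild-type cells, was higher by at least 1.13-fold. In such bounds the dimmer signal was under the floor, and the floor took its place in the fold. Summed over all 10 markers the signal was 601 in knockout cells, against 613 in wild-type cells. S100a8, a calcium-binding protein gene listed as a neutrophil marker, was at 367 in knockout cells, against 386 in wild-type cells. It was the brightest of the 10 and made most of that sum. The part of neutrophils in the S100a8 and Csf3r signals was not tested.

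**Figure D2:**
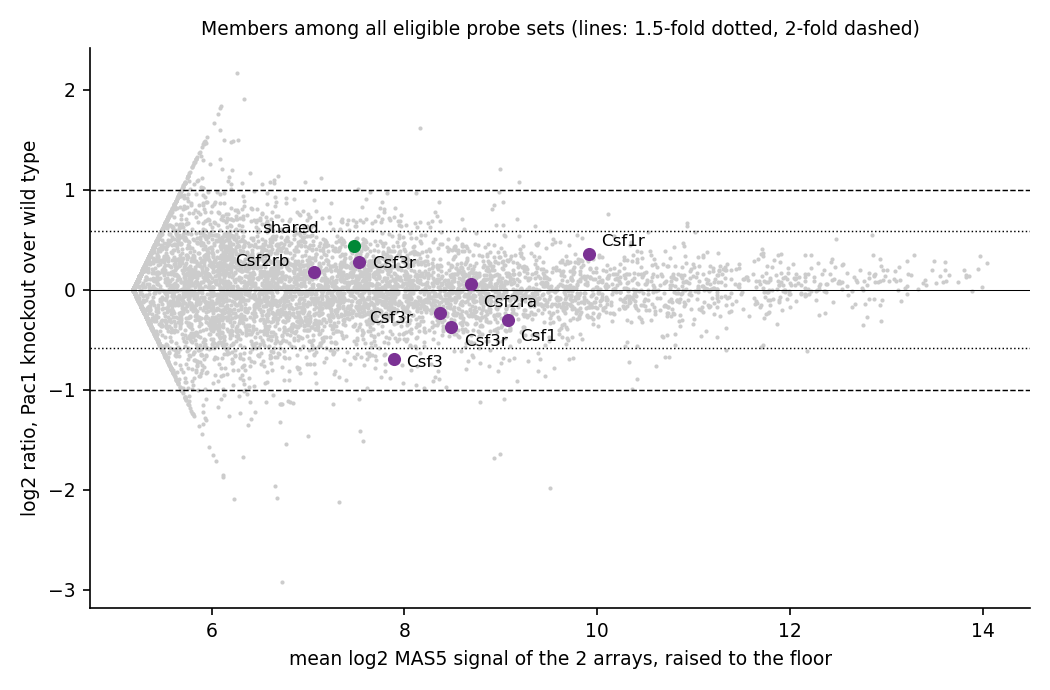
Log2 ratio of Pac1 knockout over wild type against the mean log2 MAS5 signal of both arrays, for all 6838 eligible probe sets (grey), the 8 eligible member probe sets (purple) and the probe set shared by Csf2rb and Csf2rb2 (green). Dotted and dashed lines mark 1.5-fold and 2-fold; Csf3 is the only member beyond a dotted line, at −0.69.

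Across the 8 eligible member probe sets, 4 ratios were below 0 and 4 above, with a median of −0.09 against 0.02 for all eligible probe sets. The 2 measurable ligands were both below 0, and the 6 receptor probe sets had 4 ratios above 0 and 2 below. Of all eligible probe sets, 52.5% were above 0 and 47.5% below. The difference between the ratios of Csf1r and its ligand Csf1 was 0.66 on the log2 scale. How common such a difference is on these arrays was not computed, and the dim Csf1r probe set was lower in knockout cells at the lower floor.

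Stromal and mesothelial cells, which also make M-CSF and G-CSF, were followed by 10 markers. Of these, 7 were above the floor on at least 1 array, with 4 ratios below 0, 3 above and a median of −0.23. Summed over all 10 markers the signal was 1143 in knockout cells, against 1276 in wild-type cells. The smooth-muscle actin gene Acta2 had the lowest ratio, at 52.2 in knockout cells, against 133 in wild-type cells (−1.35). The proteoglycan gene Dcn had the highest ratio (0.37) of those above the floor on both arrays, and Lum, at 46.9 in knockout cells, against 19.6 in wild-type cells, was higher by at least 1.29-fold. Msln, Krt19 and Thy1 were below the floor on both arrays. The part of these cells in the Csf1 and Csf3 values was not tested.

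Among T and NK cell markers, 2 of 8 on the array were above the floor, and each in 1 genotype only. These were Cd4 (lower by at least 2.05-fold) and Il2rb (higher by at least 1.16-fold). For eosinophils it was Prg2 alone of 3, also in 1 genotype only, higher by at least 2.75-fold. Mast cell and basophil markers had 2 of 7 above it on both arrays, Tpsb2 (0.73) and Hdc (−0.45), and endothelial markers 2 of 5, Eng (0.01) and Vwf (−0.40). Eng was bright, at 2121 in knockout cells, against 2111 in wild-type cells, while Pecam1, Cdh5 and Kdr were below the floor on both arrays. Which cells gave these signals was not tested. All 4 B cell markers on the array were above the floor on at least 1 array, from −0.90 for Ighm to at least 2.75-fold higher for Cd79a. The Ighm value is that of the brightest of its 16 probe sets, which is of a kind that may bind other transcripts too.

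The windows around the annotated starts of 3 member genes are shown because they hold letters of sites for factors that act on these genes in macrophages. NF-kB, which LPS activates, binds kappaB sites, and PU.1, the product of Spi1, binds a core of GAGGAA in genes of myeloid receptors. The windows run from 250 bases before to 50 after the start, 5′ to 3′ on the gene's strand, from RefSeq on build GRCm38.p6. Capitals mark a match to GGGNNTTTC, read here on the opposite strand, in Csf1 (chr3:107760420-107760719, minus strand), and GAGGAA in Csf2ra (chr19:61228369-61228668, minus strand) and Csf3r (chr4:126024409-126024708, plus strand).
Csf1: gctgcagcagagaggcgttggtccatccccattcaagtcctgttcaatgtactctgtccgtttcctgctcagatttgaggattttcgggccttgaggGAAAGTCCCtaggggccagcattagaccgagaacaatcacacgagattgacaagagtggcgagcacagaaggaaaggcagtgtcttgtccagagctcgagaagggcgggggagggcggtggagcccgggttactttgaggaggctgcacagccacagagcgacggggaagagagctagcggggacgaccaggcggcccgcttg
Csf2ra: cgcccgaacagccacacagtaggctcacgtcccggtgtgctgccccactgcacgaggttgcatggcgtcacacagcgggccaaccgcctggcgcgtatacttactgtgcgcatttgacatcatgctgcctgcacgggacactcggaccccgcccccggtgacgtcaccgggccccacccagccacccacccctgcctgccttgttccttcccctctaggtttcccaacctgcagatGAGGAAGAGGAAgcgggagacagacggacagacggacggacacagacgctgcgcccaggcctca
Csf3r: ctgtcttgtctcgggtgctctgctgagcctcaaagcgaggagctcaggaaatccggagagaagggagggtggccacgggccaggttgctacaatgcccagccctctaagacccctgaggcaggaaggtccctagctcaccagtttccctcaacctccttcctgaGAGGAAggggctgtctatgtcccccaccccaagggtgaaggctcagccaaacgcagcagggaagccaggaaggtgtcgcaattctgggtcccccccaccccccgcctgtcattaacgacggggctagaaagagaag

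Windows of 5 genes were searched on both strands, those of Csf1, Csf2, Csf2ra, Csf3r and the copy Csf2rb2. The members Csf3, Csf1r and Csf2rb were not searched, so the counts do not describe all members. GGGNNTTTC, for kappaB, was in 1 of them and in 4.36% of all 32851 promoter windows of this length. GAGGAA was in 3 of them and in 28.3% of all windows, side by side in 2 copies in Csf2ra. The AP-1 letters TGANTCA (7.81% of all windows) and the C/EBP letters TTGCGNAA (0.798%) were in 0 of the 5, and the matches shown do not overlap another of these motifs. These are matches of letters in a window, not shown sites. Of the factors themselves, named here for their motifs, Rela was at 2275 in knockout cells, against 2408 in wild-type cells. Spi1 was at 895 in knockout cells, against 913 in wild-type cells, a log2 ratio of −0.03.

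A list of 29 regulators of CSF gene transcription and mRNA decay had 26 genes with a probe set of their own, 20 of them eligible. Of these, 19 had ratios below 0 and 1 above, with a median of −0.18 against 0.02 for all eligible genes, of which 52.2% were above 0. None (0 of 20) was 1.5-fold apart, against 12.1% of all 5119 eligible genes. The count below 0 was 18 of 20 after loess and 18 of 21 after quantile normalization. Several of these genes are AP-1 and ETS factors whose ratios were already known when the list was made, so the direction is no independent evidence.

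The lowest of the regulators above the floor on both arrays was Zfp36l1, a protein that speeds decay of AU-rich messages, at 76.8 in knockout cells, against 113 in wild-type cells (log2 ratio −0.56). The transcription factor Atf2 was at 182 in knockout cells, against 247 in wild-type cells (−0.44). Relb, an NF-kB subunit, was at 234 in knockout cells, against 307 in wild-type cells (−0.39). These 3 were still under 1.5-fold apart. Nfatc2, a calcium-regulated factor, alone was above 0, at 130 in knockout cells, against 116 in wild-type cells (0.16). Zfp36, whose product tristetraprolin destabilises the GM-CSF message, was at 1893 in knockout cells, against 1898 in wild-type cells, and the decay factor gene Hnrnpd was at 660 in knockout cells, against 662 in wild-type cells.

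**Figure D3:**
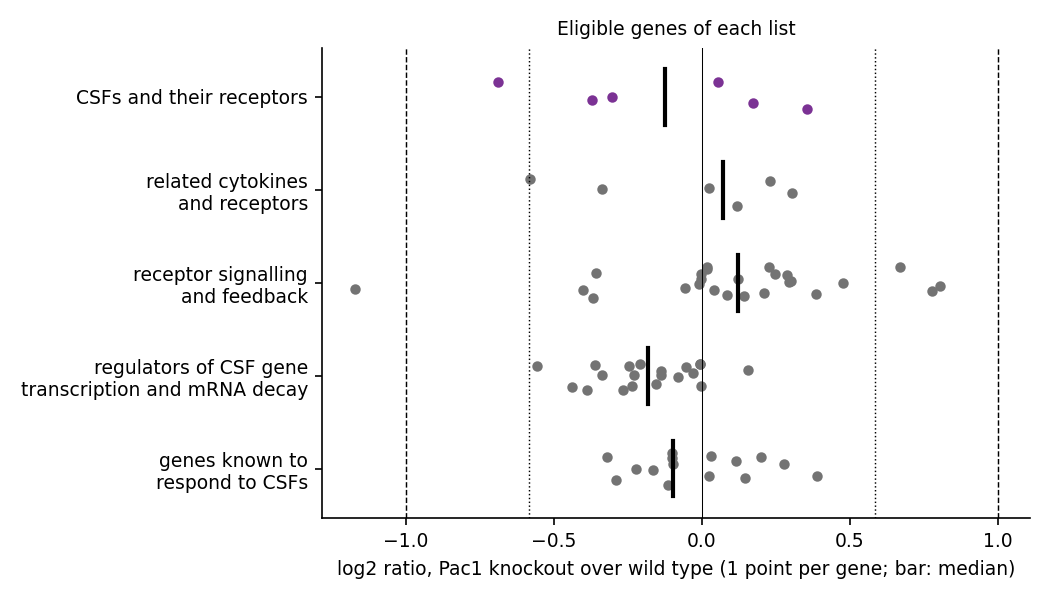
Log2 ratio of Pac1 knockout over wild type for the eligible genes of the CSF and receptor genes (purple) and of 4 related lists (grey), 1 point per gene, with the median as a bar. Dotted and dashed lines mark 1.5-fold and 2-fold; among the regulators 19 of 20 points lie below 0, and Tyk2 is the only point beyond 2-fold.

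Genes of receptor signalling and its feedback had 25 eligible of 33 listed, with 17 ratios above 0 and 8 below and a median of 0.12. Over all eligible genes the median was 0.02, with 52.2% above 0. After both arrays were brought to equal medians, 13 were above 0 and 12 below, with a median of 0.003. All eligible genes then had 37.7% above 0 and a median of −0.10. Of the 25, 3 were 1.5-fold or more higher and 1 was 1.5-fold or more lower, or 4 of 25, against 12.1% of all eligible genes. The lower one was Tyk2, a kinase of the JAK family, at 44.7 in knockout cells, against 101 in wild-type cells. Its log2 ratio of −1.17 was past 2-fold, as were those of 2.31% of all eligible genes.

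Of the higher signalling genes, Grb2, the adaptor that links receptors to Ras, was at 418 in knockout cells, against 243.5 in wild-type cells (0.78). Stat5b, a transcription factor activated by the GM-CSF receptor, was at 80.3 in knockout cells, against 45.9 in wild-type cells (0.81). The kinase gene Src was at 68.0 in knockout cells, against 42.7 in wild-type cells (0.67). Tyk2, Stat5b and Src were dim on at least 1 array, near the floor. After Tyk2, the lowest were Cbl, a ubiquitin ligase that ends signalling of the M-CSF receptor, at 71.3 in knockout cells, against 94.1 in wild-type cells (−0.40), and the STAT5-induced inhibitor gene Cish, at 105 in knockout cells, against 136 in wild-type cells (−0.37).

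Genes known to respond to colony-stimulating factors showed no shared direction. Of 15 eligible among 27 listed, 7 ratios were above 0 and 8 below, with a median of −0.10. Over all eligible genes 52.2% were above 0, with a median of 0.02. None (0 of 15) was 1.5-fold apart, against 12.1% of all eligible genes. After both arrays were brought to equal medians, 4 were above 0 and 11 below, with a median of −0.22. That scaling lowered ratios across the array, and all eligible genes then had 37.7% above 0 and a median of −0.10. Plau, the urokinase gene, was at 260 in knockout cells, against 198 in wild-type cells (0.39), Ccnd2 had a ratio of 0.20 and Apoe one of 0.15. The chemokine gene Ccl22 was at 301 in knockout cells, against 375 in wild-type cells (−0.32), Mrc1 was at −0.29, and Egr2, a transcription factor of monocyte differentiation, at −0.22.

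Other cytokines of blood-cell growth and their receptors were in part below the floor. Of 14 listed, 11 had a probe set of their own and 6 were eligible, among which 0 were 1.5-fold apart and the median ratio was 0.07, or −0.05 with arrays scaled to the same median. Il3 and Il5, whose receptors share the Csf2rb chain, were below the floor on both arrays, as was Il5ra. Il3ra was at 168 in knockout cells, against 165 in wild-type cells (0.02). Kitl, the ligand of the receptor Kit, was at 50.7 in knockout cells, against 75.8 in wild-type cells (−0.58). Flt3, a receptor of the same family as Csf1r, was at 125 in knockout cells, against 158 in wild-type cells (−0.34), but its probe set is of a kind that may bind other transcripts too.

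The directions of the members were then compared across 7 other ways of processing the same arrays. Csf3 lay between −0.81 and −0.68 in all 7 and stayed past 1.5-fold. Csf1 lay between −0.42 and −0.27, and Csf1r between 0.24 and 0.38. The ratios of these genes could not change under the other floors or without cross-hybridising probe sets. Their signals were above each of those floors, and their probe sets bear no such mark. Only the other scalings and the pseudocount could move them. Csf2ra was the only eligible member to change sign, with arrays scaled to the same median.

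**Figure D4:**
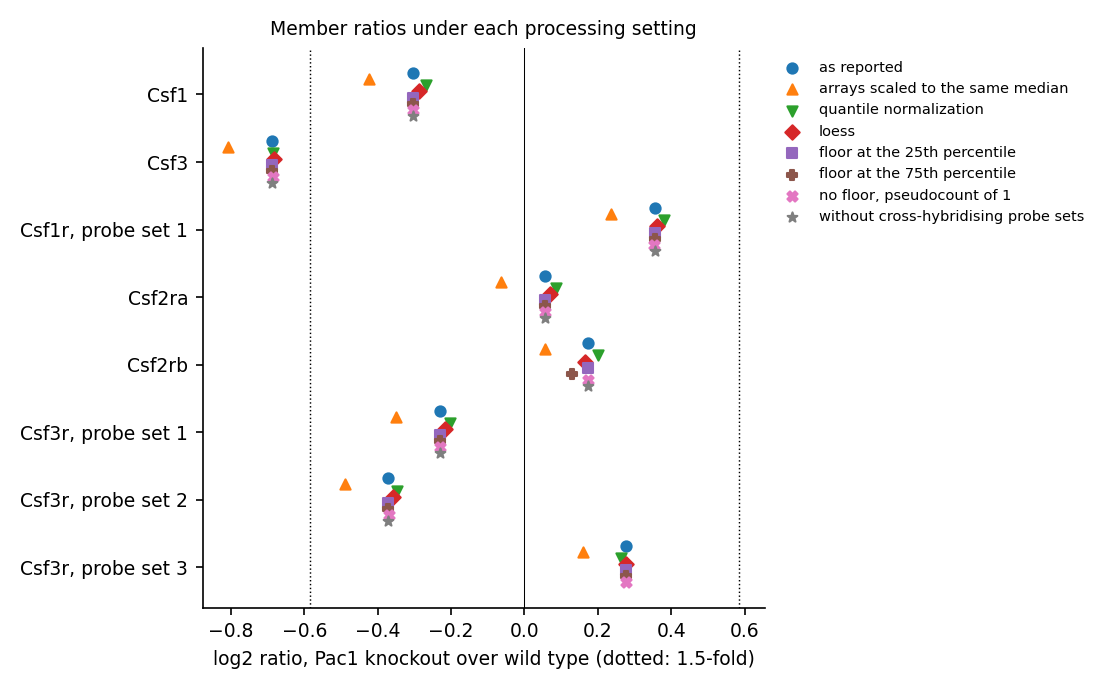
Log2 ratio of Pac1 knockout over wild type for the 8 eligible member probe sets as reported (circles) and under 7 alternative settings (other markers; 6 for the third Csf3r probe set, which one setting leaves out as cross-hybridising), with 1.5-fold as dotted lines. Scaling to the same median moves every member down by the same amount, and Csf3 lies beyond the lower dotted line in every setting. The other floors and the removal of cross-hybridising probe sets could not change the Csf3 ratio.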

How the data were processed

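RNA was copied from a poly(T) primer, amplified and labelled with biotin, per the labels' protocols. The deposited table holds a linear intensity for each probe set, which the authors computed with MAS5, per the submitters' processing notes, which give no version or settings. Priming at the poly(A) tail favours sequence near it, and brightness depends on the probes, so each probe set was compared with itself across arrays. The summed marker signals are the exception. In them the brightest probe sets weigh most, and signals under the floor are included. Detection calls were not used here, and the floor took their place. Precision is limited by having 1 array per genotype.

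Gene symbols came from the platform's annotation table. Of 12654 probe sets, 10298 had 1 gene symbol, 363 several and 1993 none there, and 10279 of the named ones matched the RefSeq gene table. The 66 control probe sets were left out. Arrays were scaled to the same 2% trimmed mean (factors of 1 after rounding), signals were raised to the floor, and log2 ratios were formed as knockout over wild type. In gene lists, the probe set with the highest mean signal stood for a gene, which gave 8220 genes, 5119 of them eligible. Calculations used Python 3.11.15, numpy 2.4.6, pandas 2.3.3 and statsmodels 0.14.6 (loess span 0.3). The code was tested on simulated data with larger changes and 2-fold calls, which gives no error rate for the 1.5-fold calls here.

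The members, the 4 pathway lists and the 8 marker lists were chosen with earlier results of these data known. Named genes were all members, Dusp2, Csf2rb2, Itgam, up to 3 genes with the highest and 3 with the lowest ratio per pathway list among those above the floor on both arrays, any 2-fold apart, and the extremes of each marker list. Rela, Spi1, S100a8, S100a9, Lum and the genes named as below the floor were added after their values were seen. Genes with a pattern like a member's were not sought, since 2 arrays give no pattern over samples.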

Additional observations from a re-analysis of the deposited data

How the results depend on the processing

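Each ratio was recomputed with arrays scaled to the same median, quantile normalization, loess, a floor at the 25th (9.90) or 75th percentile (129.9), no floor with a pseudocount of 1, and without probe sets marked for cross-hybridisation. Scaling to the same median moved the ratio of every eligible member by −0.12, and the median of all eligible probe sets was −0.09 in place of 0.02. It split the 1.5-fold calls into 296 higher and 621 lower, against 448 and 404. No called member changed sign.

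The counts depended on the floor. With the floor at the 25th percentile, 3 of 10 eligible member probe sets were 1.5-fold apart and 1 was 2-fold apart, and the same numbers held with no floor. The added ones were Csf2 (log2 ratio −1.17 at the lower floor and −1.12 with none) and the dim Csf1r probe set (−0.89 and −0.84). Over all probe sets the 1.5-fold calls numbered 2931 (28.4% of 10310), 158 (4.74% of 3333) and 4343 (34.5% of 12588) with the 25th percentile, the 75th percentile and no floor, against 852 of 6838. The 2-fold calls numbered 1322 (12.8%), 13 (0.39%) and 2431 (19.3%), against 157. The members' shares at the lower floor and with none were thus near those of all probe sets. Ratios as low as that of Csf2 occurred in 3.85% of the probe sets eligible at the lower floor.

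Among all genes the 1.5-fold share was 13.1% with the same median, 26.0% with the 25th percentile, 4.67% with the 75th and 30.7% with no floor. Of the signalling genes, 1 of 14 was 1.5-fold apart with the 75th percentile, against 4 of 25. Of the regulators, 1 of 20 was with the same median, 3 of 25 with the 25th percentile and 4 of 26 with no floor, against 0 of 20. Of the related cytokines and receptors, 1 of 6 was with the same median, quantile normalization or loess, 1 of 8 with the 25th percentile and 2 of 11 with no floor, against 0 of 6. No paired analysis was possible because each genotype has 1 array.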
